A study of Mus musculus with 24 samples.

Results

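The comparison described here is between 2 groups of mouse lungs that both received ovalbumin (OVA), an egg white protein used as a model allergen, and that differed in whether the diesel particle C-DEP was given with it. Its members are the 3 arrays titled CDEP/OVA and the 3 titled Saline/OVA, 6 of the 24 arrays of the series, and 12393 genes were measured on each. The series sets diesel exhaust particles of different chemistry beside each other, alone and with OVA, in 8 groups of 3 mice with 1 array per mouse. All mice were female BALB/C, an inbred laboratory strain, and were 8 to 10 weeks old.

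The Saline/OVA mice received 20 ug of OVA, and the CDEP/OVA mice received 20 ug of OVA with 150 ug of C-DEP. Both were dosed through the nose on days 0 and 13, the lungs were taken 18 hours after the second dose, and both are labelled as sensitized. For comparison, Saline mice received saline and CDEP mice received 150 ug of C-DEP without OVA, and both are labelled as not sensitized. ADEP/OVA and NDEP/OVA mice received 20 ug of OVA with 150 ug of A-DEP or N-DEP, the other diesel samples of the study. No group received OVA by another route, so every response to OVA rests on the same 2 doses in the nose.

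When an allergen reaches the airway together with an adjuvant, T helper 2 cells and innate lymphoid cells release interleukins 4, 5 and 13. Interleukin 13 turns airway epithelium toward goblet cells, which make gel-forming mucins and the proteins that process them, and interleukin 4 or 13 drives the alternative activation of macrophages through the transcription factor STAT6. Interferon-gamma, from T helper 1 and natural killer cells, instead induces guanylate-binding proteins, immunity-related GTPases and the chemokines Cxcl9 and Cxcl10. Diesel particles carry polycyclic aromatic compounds and metals on a carbon core and are known to draw neutrophils and monocytes into the lung.

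Levels are log2 values of the deposited array intensities, differences are log2 fold changes (CDEP/OVA minus Saline/OVA) with their standard error (SE), and a gene is called when its limma p-value, adjusted by Benjamini-Hochberg over all 12393 genes, is under 0.05. The array medians lay between 72.2 and 75.5 intensity units over the series, and the number of arrays limits the precision. Lung markers were bright on all 6 arrays. Sftpc, a surfactant protein of alveolar type 2 cells, averaged 13.71 and 13.75, Ager of alveolar type 1 cells 11.73 and 11.84, Scgb1a1 of club cells 13.88 and 14.08, and Cldn5 of endothelium 11.41 and 11.31 in CDEP/OVA and Saline/OVA. None of these 4 genes was called. A gene is termed dim in a group when its mean lay below the 25th percentile of each array of that group (4.45 to 4.65 over all arrays); it is then not shown to be above background there, and the size of its change is uncertain. In whole lung, more cells of a type and more RNA per cell cannot be told apart.

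C-DEP given with OVA changed 594 genes, 4.79% of those tested. 449 were higher (3.62%) and 145 lower (1.17%), and 82 of the higher but 15 of the lower ones differed by at least 2-fold. The median log2 fold change of all genes was -0.01. Among the 12 genes that rose furthest were genes of mucus-producing epithelium, of alternatively activated macrophages and of the interferon response, with the neutrophil gene Cd177, the chemokine Cxcl5, the acute phase gene Orm1 and the protease inhibitor Timp1. Of the 12 that fell furthest, 8 belong to striated muscle. The arrays of the groups did not overlap for 578 of the 594 genes, and 24.4% of all genes showed no overlap. 172 genes (137 higher, 35 lower) were called whichever of the 6 arrays was left out. The count depended most on replicate 2 of each group, falling to 223 without that Saline/OVA array and to 217 without that CDEP/OVA array, and to 384 without replicate 3 of Saline/OVA.

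Goblet cell and mucus genes rose together. Of 16 measured 14 rose, none fell, and the median log2 fold change was 1.54. Clca1, a secreted metalloprotease of goblet cells that processes mucus, measured 6.79, 3.80 and 9.29 in Saline/OVA and 11.96, 11.51 and 12.33 in CDEP/OVA. Its log2 fold change of 5.31 ± 0.90 (39.6-fold, adjusted p = 0.00067, n = 3 and 3) was the largest of all genes. The CDEP/OVA arrays were close together and all above the Saline/OVA arrays, which were spread over more than 5 log2 units. Because of that spread the estimate ran from 3.89 without replicate 2 of Saline/OVA to 6.64 without replicate 3.

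Slc26a4, the anion exchanger pendrin of airway epithelium, measured 6.37, 5.16 and 5.97 in Saline/OVA and 10.01, 10.32 and 9.59 in CDEP/OVA. It rose by 4.14 ± 0.29 (17.6-fold, adjusted p = 4.52e-09). Every CDEP/OVA array was more than 3 log2 units above the highest Saline/OVA array. Agr2, a disulfide isomerase needed for mucin folding, measured 6.49, 5.35 and 7.60 against 9.34, 9.19 and 9.83, a rise of 2.97 ± 0.45 (adjusted p = 0.00019), which was 2.41 without replicate 2 of Saline/OVA and 3.53 without replicate 3. Its second probe set, a far dimmer one, differed by 0.48 and was not called.

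The gel-forming mucins rose as well. Muc5ac, the mucin induced in allergic airways, measured 5.94, 6.24 and 6.28 in Saline/OVA and 7.78, 7.92 and 8.55 in CDEP/OVA, a rise of 1.93 ± 0.18 (adjusted p = 3.43e-07). Muc5b, the mucin that airways also make at rest, measured 8.54, 7.44 and 8.80 against 9.91, 9.52 and 10.14, a rise of 1.60 ± 0.28 (adjusted p = 0.000851). Neither mucin overlapped between groups, and for Muc5b replicate 2 of Saline/OVA was again the lowest array. The mucus protein Fcgbp rose by 1.78 ± 0.25 and the trefoil peptide Tff2 by 1.49 ± 0.23. Itln1, an intelectin found in mucus, rose by 1.34 ± 0.19 from a dim level. The transcription factor Spdef, which directs goblet cell differentiation, rose by 0.86 ± 0.16, and Foxa3, another goblet cell transcription factor, by 0.65 ± 0.14 from a dim level. The 2 measured genes of the list that were not called were Gcnt3 (0.00 ± 0.10, dim in both groups) and the trefoil peptide Tff1 (-0.27 ± 0.12). The number of genes called was 12 to 13 with 1 array left out.

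**Figure D1:**
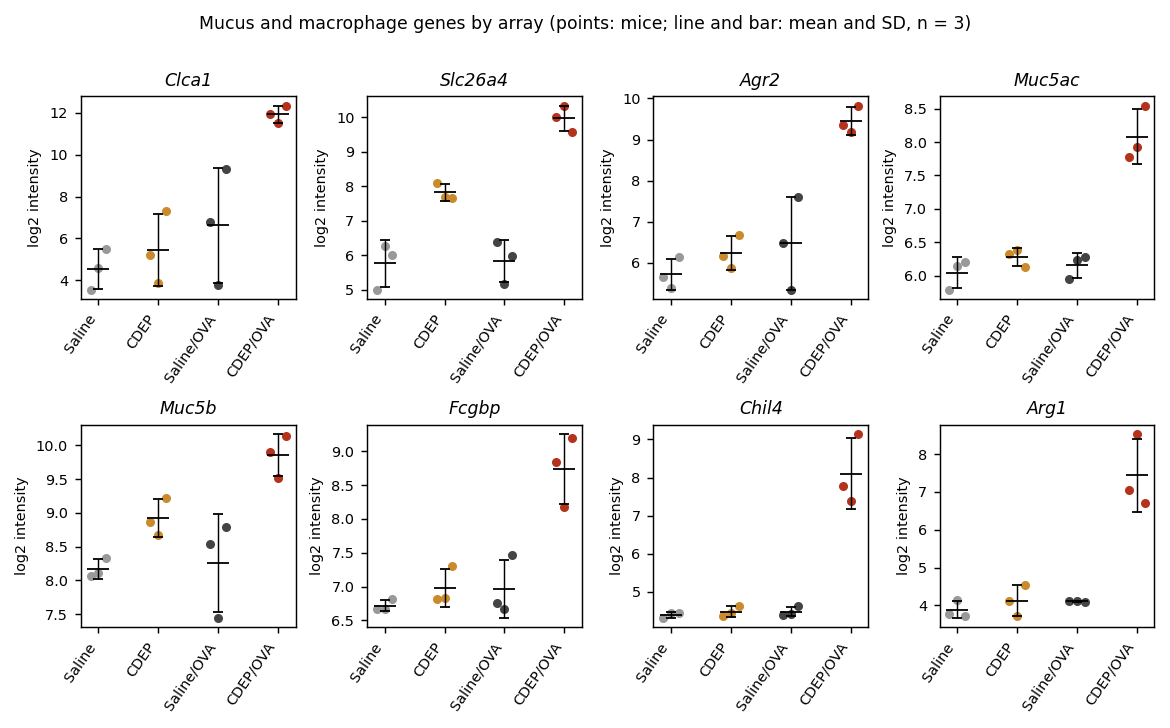
Log2 intensity (y axis) of 8 mucus and macrophage genes in the Saline, CDEP, Saline/OVA and CDEP/OVA groups (x axis), with 1 point per mouse and the mean and SD of 3 mice as line and bar. The CDEP/OVA points lie above all Saline/OVA points in each panel, and Clca1 in Saline/OVA runs from 3.80 to 9.29.

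Genes that macrophages express in alternative activation rose together. Of 15 measured, 10 rose and none fell, with a median of 0.69. Arg1, the arginase that competes for the substrate of nitric oxide synthesis, measured 4.11, 4.13 and 4.08 in Saline/OVA, where it was dim, and 7.06, 8.53 and 6.71 in CDEP/OVA. It rose by 3.33 ± 0.33 (adjusted p = 6.18e-07). Retnla, a secreted protein induced by interleukins 4 and 13, measured 11.78, 9.27 and 12.60 against 13.75, 13.60 and 13.74, a rise of 2.48 ± 0.44 (adjusted p = 0.00116). Its CDEP/OVA arrays differed by 0.15 or less while the Saline/OVA arrays were far apart, and its estimate was 1.51 without replicate 2 of Saline/OVA. Mmp12, the macrophage elastase, rose by 1.84 ± 0.28, the beta-glucan receptor Clec7a by 1.19 ± 0.22, the lectin Mgl2 by 0.87 ± 0.16 and the mannose receptor Mrc1 by 0.65 ± 0.14. Slc7a2, which imports arginine, changed by 0.32 and was not called. The count of called genes was 7 to 10 with 1 array left out and 6 when the heart muscle and fat list means were added to the model.

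All 4 measured chitinases and chitinase-like proteins rose, with a median of 2.19. Chil4 and Chil3, chitin-binding proteins without enzyme activity that macrophages and epithelium make in type 2 inflammation, also belong to the macrophage list. Chil4 measured 4.40, 4.42 and 4.63 in Saline/OVA, where it was dim, and 7.79, 7.38 and 9.14 in CDEP/OVA, a rise of 3.62 ± 0.27 (adjusted p = 4.91e-09). Chil3 measured 7.81, 8.08 and 8.25 against 10.57, 10.29 and 10.57, a rise of 2.43 ± 0.33 (adjusted p = 6.44e-05). Chia1, the acidic chitinase, measured 8.23, 8.80 and 8.78 against 10.42, 10.62 and 10.60, a rise of 1.95 ± 0.24 (adjusted p = 1.2e-05). No array of CDEP/OVA fell within the Saline/OVA range for any of the 3. Chil1 rose by 1.10 ± 0.21. Chil3 and Chil4 are near-identical neighbours in the genome, so their probe sets may share signal.

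The promoter of Retnla is shown because this gene is a textbook target of STAT6. The window holds the 250 bases before the RefSeq start of transcription (chr16:48842359-48842608, plus strand, GRCm38.p6), with a match to the STAT6 motif (TTC and GAA with any 4 bases between them) in capitals, 145 bases before the start.
Retnla: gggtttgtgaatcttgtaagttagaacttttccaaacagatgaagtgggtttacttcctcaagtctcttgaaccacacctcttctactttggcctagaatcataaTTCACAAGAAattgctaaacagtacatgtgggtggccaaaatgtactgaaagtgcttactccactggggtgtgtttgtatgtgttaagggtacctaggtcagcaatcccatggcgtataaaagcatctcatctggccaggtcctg
On either strand this motif occurred in 5.85% of 32851 RefSeq windows of the same length. It occurred in 2 of the 7 called macrophage genes that had a window (Clec7a and Retnla), in 3 of their 9 windows. None of the 9 called mucus genes and none of the 4 called chitinases with a window held it. A match is a description of the letters and was not tested for binding.

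Th2 cytokines and their receptors were not detected as changed. Of 10 measured Th2 cytokines and receptors none was called in either direction, the median was 0.02, and 5 were dim in both groups. Il13 measured 4.44, 4.51 and 4.42 in Saline/OVA and 4.40, 4.42 and 4.35 in CDEP/OVA, a difference of -0.06 ± 0.10. Il5 differed by -0.02 ± 0.12 and Il4 by 0.10 ± 0.12, and all 3 genes were dim in both groups. The arrays overlapped for Il5 and Il4. Eosinophil markers gave the same picture: none of 7 was called, the median was -0.13, and 6 were dim, among them the granule peroxidase Epx (-0.07 ± 0.11). Levels this low are not shown to be above background, and 10 of the 594 called genes were dim in both groups. Il33, the epithelial alarmin that activates type 2 lymphoid cells, measured 6.84, 6.73 and 6.96 in Saline/OVA and 8.04, 8.91 and 8.18 in CDEP/OVA and rose by 1.54 ± 0.22 (adjusted p = 0.000101). It was the only one of 5 measured alarmin genes called.

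Interferon-inducible genes rose almost as a whole. Of 22 measured, 19 rose, none fell, all 22 had a positive sign, and the median was 0.87. Cxcl9, the chemokine induced most selectively by interferon-gamma, measured 4.94, 4.65 and 5.05 in Saline/OVA and 8.15, 8.59 and 6.48 in CDEP/OVA, a rise of 2.86 ± 0.33 (7.24-fold, adjusted p = 6.56e-06), or 3.49 without replicate 3 of CDEP/OVA. Cxcl10, which binds the same receptor, measured 6.59, 6.08 and 5.91 against 8.68, 9.10 and 7.34, a rise of 2.18 ± 0.29 (adjusted p = 3.93e-05). Replicate 3 of CDEP/OVA was the lowest array of its group for both but stood above every Saline/OVA array.

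The interferon-inducible GTPases, which act against pathogens inside vacuoles, behaved likewise. Iigp1 measured 8.42, 7.59 and 8.04 in Saline/OVA and 11.00, 10.82 and 9.87 in CDEP/OVA, a rise of 2.54 ± 0.30 (adjusted p = 9.11e-06). Gbp6 measured 5.67, 5.50 and 5.40 against 8.08, 8.03 and 7.04, a rise of 2.19 ± 0.21 (adjusted p = 4.49e-07). Igtp measured 8.14, 8.07 and 8.14 against 10.51, 10.16 and 9.17, a rise of 1.83 ± 0.22 (adjusted p = 1.33e-05). In each of these genes replicates 1 and 2 of CDEP/OVA were within 0.4 of each other and replicate 3 lay lower, with no overlap between groups. Irgm1, a regulatory GTPase of the same family, rose by 1.26 ± 0.19, and Tap1, which pumps peptides to class I molecules, by 1.14 ± 0.20. Among the antiviral genes of the list, Ifit1, Oasl2 and Mx1 were called and rose by 1.11 ± 0.18, 0.82 ± 0.19 and 0.56 ± 0.15. Rsad2, Ifit3 and Ifit2 had log2 fold changes of 0.73, 0.60 and 0.39 and were not called. Ifng itself was dim in Saline/OVA and differed by 0.03. The count of called genes was 12 to 20 with 1 array left out, 12 being without replicate 2 of CDEP/OVA, and 9 when the heart muscle and fat list means were added to the model.

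**Figure D2:**
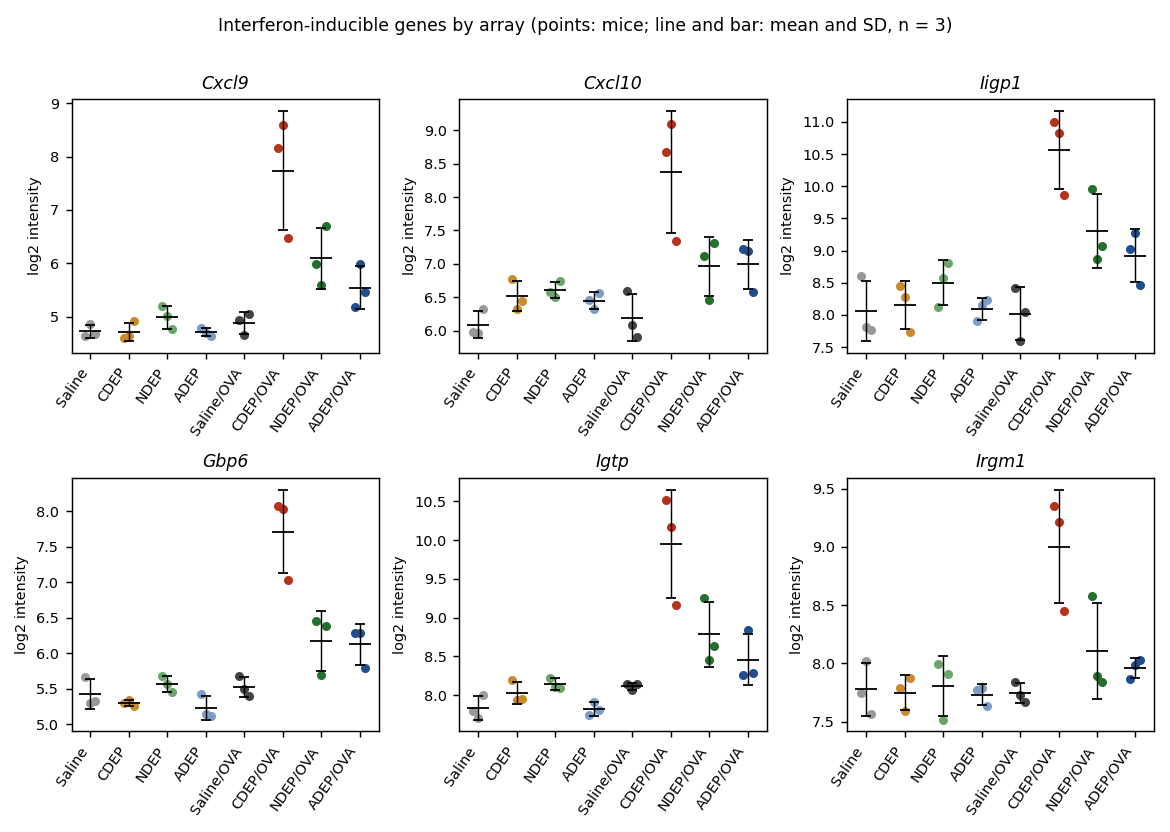
Log2 intensity (y axis) of 6 interferon-inducible genes in all 8 groups (x axis), with 1 point per mouse and the mean and SD of 3 mice as line and bar. For all 6 genes the CDEP/OVA mean is the highest, and its replicate 3 is the lowest of the group.

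The promoters of Irgm1 and Igtp are shown because both genes rose and hold matches to the interferon-stimulated response element close to their start. The windows are the 250 bases before the RefSeq start (chr11:48871421-48871670, minus strand, and chr11:58199306-58199555, plus strand, GRCm38.p6), and capitals mark GAAA, any 2 bases and GAAA. In Irgm1 2 matches overlap, 30 and 24 bases before the start, and in Igtp the match lies 34 bases before it.
Irgm1: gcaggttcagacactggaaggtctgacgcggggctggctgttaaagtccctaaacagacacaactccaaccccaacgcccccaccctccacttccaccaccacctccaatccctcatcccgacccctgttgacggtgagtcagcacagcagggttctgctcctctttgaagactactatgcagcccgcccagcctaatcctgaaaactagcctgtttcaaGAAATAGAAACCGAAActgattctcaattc
Igtp: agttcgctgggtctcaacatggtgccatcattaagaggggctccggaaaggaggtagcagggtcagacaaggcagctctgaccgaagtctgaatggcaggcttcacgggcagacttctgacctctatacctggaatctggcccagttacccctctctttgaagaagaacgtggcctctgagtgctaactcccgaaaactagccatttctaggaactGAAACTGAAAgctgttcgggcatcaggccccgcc
A match on either strand occurred in 2.98% of the 32851 windows and in 7 of the 14 called interferon-inducible genes with a window, which were Cxcl10, Gbp2, Gbp3, Ifit1, Igtp, Irgm1 and Stat2. The remaining 5 of the 19 called genes had no window.

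Neutrophil and monocyte recruitment genes were higher. Of 6 measured neutrophil chemokines and receptors 3 rose and none fell, with a median of 0.61. Cxcl5, an epithelial chemokine for neutrophils, measured 5.30, 4.43 and 4.76 in Saline/OVA and 7.33, 8.49 and 6.92 in CDEP/OVA, a rise of 2.75 ± 0.33 (adjusted p = 9.64e-06). Cxcl1, which acts on the same receptor, measured 5.62, 4.10 and 4.74 against 6.77, 8.09 and 6.56, a rise of 2.32 ± 0.33 (adjusted p = 0.000116). Cxcl2 rose by 1.06 ± 0.27 from a dim level and lost its call without replicate 2 of either group. In all 3 genes replicate 2 of CDEP/OVA was the highest array and replicate 2 of Saline/OVA the lowest.

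The promoters of Cxcl1 and Cxcl2 are shown because each holds a pair of matches to the NF-kB motif, GGG, any 2 bases and TTTCC. The windows are the 250 bases before the RefSeq start (chr5:90890995-90891244 and chr5:90903649-90903898, plus strand, GRCm38.p6). Capitals mark the matches, 89 and 71 bases before the start in Cxcl1 and 97 and 78 in Cxcl2. The match at 89 in Cxcl1 is on the opposite strand.
Cxcl1: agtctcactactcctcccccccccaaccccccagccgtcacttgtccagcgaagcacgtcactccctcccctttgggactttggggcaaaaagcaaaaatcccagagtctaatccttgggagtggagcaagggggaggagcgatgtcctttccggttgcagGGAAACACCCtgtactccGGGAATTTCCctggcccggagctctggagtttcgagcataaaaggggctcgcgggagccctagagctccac
Cxcl2: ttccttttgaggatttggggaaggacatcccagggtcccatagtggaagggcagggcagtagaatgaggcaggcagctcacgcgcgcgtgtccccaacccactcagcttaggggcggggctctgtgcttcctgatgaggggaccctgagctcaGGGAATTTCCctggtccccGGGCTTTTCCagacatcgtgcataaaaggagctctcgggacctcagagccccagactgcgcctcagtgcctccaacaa
The motif occurred on either strand in 1.41% of the 32851 windows. Cxcl5 had no window.

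Of 12 monocyte chemokines and receptors 6 rose and none fell, with a median of 0.66. Ccl12, Ccl7 and Ccl2, ligands of the monocyte receptor Ccr2, rose by 1.66 ± 0.21 (from a dim level), 1.43 ± 0.22 and 1.38 ± 0.22. Ccl2 measured 6.21, 6.15 and 6.12 in Saline/OVA and 7.48, 8.23 and 6.90 in CDEP/OVA (adjusted p = 0.000294). Its Saline/OVA arrays nearly coincided and its CDEP/OVA arrays were all above them. Of 9 Th2 chemokines and receptors 5 rose, with a median of 0.48. Ccl8 rose by 2.05 ± 0.25, and Ccl11, the eosinophil chemokine eotaxin, by 1.39 ± 0.14 (adjusted p = 5.75e-07), its levels going from a dim 4.17, 4.25 and 4.37 to 5.52, 5.89 and 5.53. Ccl17 and Ccl22, ligands of the T cell receptor Ccr4, rose by 0.70 ± 0.18 and 0.48 ± 0.13, and both lost their call without replicate 2 of either group or replicate 1 of CDEP/OVA. The Th2 chemokine count was 2 without replicate 2 of Saline/OVA or replicate 1 or 2 of CDEP/OVA, 3 without replicate 1 of Saline/OVA and 2 with the heart muscle and fat list means in the model.

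Acute phase and innate defence proteins were higher in part. Of 24 measured, 9 rose and none fell, with a median of 0.53, and the count was 4 without replicate 2 of Saline/OVA and 5 without that of CDEP/OVA. Orm1, the plasma protein orosomucoid, measured 4.43, 4.18 and 4.30 in Saline/OVA, where it was dim, and 7.18, 7.11 and 6.29 in CDEP/OVA, a rise of 2.56 ± 0.38 (adjusted p = 0.000161). Lcn2, an iron-binding defence protein of epithelium and neutrophils, measured 10.46, 8.36 and 9.93 against 11.61, 12.01 and 10.93, a rise of 1.94 ± 0.36 (adjusted p = 0.00167), or 1.33 without replicate 2 of Saline/OVA. The serum amyloid gene Saa3 measured 10.28, 7.06 and 9.45 against 11.11, 11.63 and 10.64. It rose by 2.20 ± 0.49 (adjusted p = 0.00816), with replicate 2 of Saline/OVA more than 2 log2 units below its group, and was 2.87 without replicate 1 of Saline/OVA. It was not called without replicate 2 of Saline/OVA (1.26) or of CDEP/OVA (1.94), or when only the groups compared were fitted (adjusted p = 0.0743). Reg3g, an antibacterial lectin, rose by 1.78 ± 0.34. Haptoglobin (Hp) differed by -0.02.

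Some markers of neutrophils, monocytes and dendritic cells rose. Of 19 neutrophil markers 5 rose, with a median of 0.33 and a count of 2 without replicate 2 of Saline/OVA or replicate 1 or 2 of CDEP/OVA. Cd177, a neutrophil surface protein, measured 6.82, 4.41 and 6.19 in Saline/OVA and 9.52, 9.16 and 9.20 in CDEP/OVA, a rise of 3.48 ± 0.41 (11.2-fold, adjusted p = 9.31e-06), or 2.78 without replicate 2 of Saline/OVA. The abundant neutrophil proteins S100a8 and S100a9 differed by 0.33 ± 0.28 and 0.26 ± 0.26, with overlapping arrays, and were not called. Of the granule genes, Lcn2 rose, while Ltf (0.71), Mmp9 (0.22), Mmp8 (0.03), Mpo (-0.11), Ngp (-0.13), Elane (-0.25) and Camp (-0.25) were not called. Of 14 monocyte markers 7 rose (3 without replicate 2 or 3 of Saline/OVA or replicate 1 or 2 of CDEP/OVA), among them F10, coagulation factor X, by 1.52 ± 0.14 (adjusted p = 4.49e-07) and the Fc receptor Fcgr1 by 0.99 ± 0.18. Of 14 dendritic cell markers 7 rose (2 without replicate 2 of Saline/OVA, 4 without replicate 1 or 2 of CDEP/OVA), with a median of 0.34, among them Cd83 by 0.86 ± 0.18 and the transcription factor Batf3 by 0.60 ± 0.11. Of 10 class II presentation genes 5 rose, Ciita, their master regulator, by 0.73 ± 0.18, and the count was 0 without replicate 2 of Saline/OVA or replicate 1 or 2 of CDEP/OVA, 1 without replicate 3 of Saline/OVA and 3 without its replicate 1. With the heart muscle and fat list means in the model, the counts were 3 for monocytes, 1 for dendritic cells and 0 for class II presentation. None of 14 T cell markers and none of 13 mast cell and basophil markers was called.

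Some inflammatory cytokines and proteases rose. Of 22 acute cytokines and receptors 7 rose (2 without replicate 2 of CDEP/OVA, 3 without replicate 2 of Saline/OVA). The antagonist Il1rn rose by 1.62 ± 0.26 (adjusted p = 0.000333) and Il1b by 1.17 ± 0.25, while Tnf differed by 0.09 and Il17a by -0.04. Timp1, the inhibitor of matrix metalloproteinases, measured 7.84, 5.96 and 7.08 in Saline/OVA and 9.51, 10.25 and 8.75 in CDEP/OVA, a rise of 2.54 ± 0.35 (adjusted p = 7.15e-05). Its groups did not overlap, and replicate 2 held the lowest value in Saline/OVA and the highest in CDEP/OVA. It was the only one of the 4 Timp genes called, beside Timp2 (-0.26), Timp3 (0.12) and Timp4 (0.12). Of 15 proteases and Timp inhibitors 4 rose, with Mmp12, Adam8 (1.06 ± 0.16) and Mmp13 (0.32 ± 0.09, dim) as the others. Of 11 complement genes 6 rose (2 without replicate 2 of Saline/OVA, 3 without that of CDEP/OVA), led by Cfb, factor B of the alternative pathway (1.25 ± 0.25). Of 19 NF-kB pathway and feedback genes 8 rose, by 0.45 to 0.72, and the count was 0 without replicate 2 of CDEP/OVA, 1 without that of Saline/OVA, 2 without replicate 3 of Saline/OVA or replicate 1 of CDEP/OVA, and 1 when only the groups compared were fitted.

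Chaperones of the endoplasmic reticulum, which fold secreted proteins and are induced by the unfolded protein response, rose by small amounts. Of 20 genes 13 rose and none fell, with a median of 0.57 and a count of 9 to 14 with 1 array left out. Creld2, a disulfide isomerase-like protein, measured 8.70, 8.58 and 9.22 in Saline/OVA and 9.78, 10.04 and 10.25 in CDEP/OVA, a rise of 1.19 ± 0.20 (adjusted p = 0.000498). Hspa5, the chaperone BiP, measured 11.38, 11.30 and 11.52 against 11.90, 12.20 and 12.27, a rise of 0.72 ± 0.12 (adjusted p = 0.000756). Sdf2l1 rose by 1.11 ± 0.18, the neurotrophic factor Manf by 0.93 ± 0.15 and the co-chaperone Dnajb11 by 0.79 ± 0.12. None of the 5 genes overlapped between groups. Atf4 and Xbp1, transcription factors of the response, differed by 0.26 and 0.20 and were not called. Of 12 cytosolic heat shock genes 5 rose, with a median of 0.62. The count was 1 without replicate 2 of Saline/OVA or replicate 2 or 3 of CDEP/OVA, and 2 without replicate 1 of Saline/OVA. Bag3 (0.56 ± 0.11) kept its call with any array left out, and Hspa1b (1.23 ± 0.35, adjusted p = 0.0406) lost it whichever array was left out.

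The promoters of Hspa5 and Creld2 are shown because both hold the full ER stress element, CCAAT and CCACG with any 9 bases between them, marked in capitals 65 and 126 bases before the start, in Creld2 on the opposite strand. The windows are the 250 bases before the RefSeq start (chr2:34771840-34772089 and chr15:88819396-88819645, plus strand, GRCm38.p6).
Hspa5: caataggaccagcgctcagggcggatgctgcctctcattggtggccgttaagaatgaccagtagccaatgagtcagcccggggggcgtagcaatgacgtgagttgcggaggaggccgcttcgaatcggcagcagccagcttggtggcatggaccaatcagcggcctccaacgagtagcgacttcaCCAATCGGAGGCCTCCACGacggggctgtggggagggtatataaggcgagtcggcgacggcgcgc
Creld2: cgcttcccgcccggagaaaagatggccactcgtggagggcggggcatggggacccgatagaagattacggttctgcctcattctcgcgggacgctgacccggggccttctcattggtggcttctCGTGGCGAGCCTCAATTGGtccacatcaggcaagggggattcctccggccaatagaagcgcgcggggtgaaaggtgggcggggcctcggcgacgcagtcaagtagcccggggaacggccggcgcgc
This element occurred on either strand in 37 of the 32851 windows (0.113%). It occurred in 5 of the 11 called chaperone genes with a window, Calr, Creld2, Dnajc3, Hspa5 and Pdia6.

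**Figure D3:**
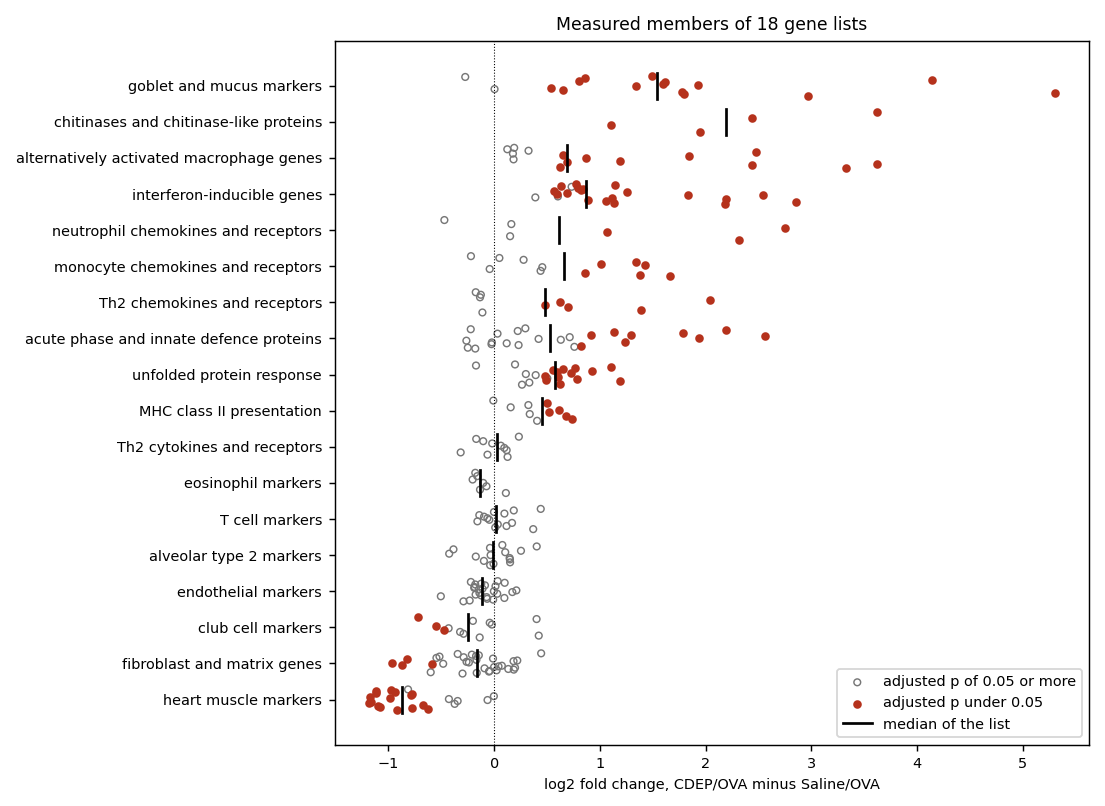
Log2 fold change of CDEP/OVA over Saline/OVA (x axis) for each measured gene of 18 lists (y axis), red where the adjusted p is under 0.05, with a bar at the list's median. The mucus list has its median at 1.54, the interferon list at 0.87 and the heart muscle list at -0.87.

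Of the called genes that respond to aromatic compounds and oxidants, which diesel particles carry, more fell than rose. Of 9 targets of the aryl hydrocarbon receptor none rose and 1 fell (11.1%). Cyp1a1, the enzyme most readily induced through this receptor, measured 6.86, 7.95 and 7.41 in Saline/OVA and 7.92, 7.69 and 7.91 in CDEP/OVA, an uncalled difference of 0.44 ± 0.26. Cyp1b1 differed by 0.45 ± 0.22 and was called only with the heart muscle and fat list means in the model (1.02, adjusted p = 0.0133). Cyp1a2 fell by 0.36 on the log2 scale (adjusted p = 0.0349) and lost its call without replicate 2 or 3 of either group. Of 19 NRF2 antioxidant genes 1 rose (5.26%) and 3 fell (15.8%), beside 3.62% and 1.17% of all genes. Gclc, which makes the rate-limiting enzyme of glutathione synthesis, measured 9.64, 9.40 and 9.66 against 10.29, 10.38 and 10.40 and rose by 0.79 ± 0.16 (adjusted p = 0.00323). The glutathione transferases Gsta3 and Gstm1 and the catalase gene Cat fell by 0.59, 0.55 and 0.52, and Cat lost its call without replicate 2 of either group, replicate 3 of Saline/OVA or replicate 1 of CDEP/OVA. Nqo1 differed by -0.18 ± 0.14. Hmox1, heme oxygenase 1, differed by 0.50 ± 0.16 and missed the threshold (adjusted p = 0.0832). It passed with array weights (adjusted p = 0.00871) and with RNA quality covariates (adjusted p = 0.0119).

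Among the gene lists, that of heart muscle held the most lower genes. Of 22 heart genes 16 fell and none rose, with a median of -0.87, and the count was 10 without replicate 1 of CDEP/OVA. Myh6, the cardiac myosin heavy chain, measured 10.48, 10.03 and 10.30 in Saline/OVA and 8.80, 9.18 and 9.34 in CDEP/OVA and fell by 1.16 on the log2 scale (SE 0.24, adjusted p = 0.00506). Myl7, an atrial myosin light chain, measured 10.65, 10.54 and 10.63 against 9.02, 9.68 and 9.59 and fell by 1.18 (SE 0.23, adjusted p = 0.0028). Tnni3, cardiac troponin I, fell by 1.12 (SE 0.19, adjusted p = 0.00054), with 8.84, 8.70 and 8.98 against 7.51, 7.86 and 7.77. None of the 3 genes overlapped between groups. The oxygen carrier Mb, the fatty acid binding protein Fabp3 and the sarcomere protein Tcap fell by 1.18, 1.14 and 1.15. Sln and Csrp3 fell by 1.11 and 1.10 and lost their call without replicate 1 of CDEP/OVA. The atrial peptide gene Nppa differed by 0.00 ± 0.43, and Myl2, the ventricular light chain, by -0.06.

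The mean of the 22 heart genes was 7.96, 7.80 and 7.91 in Saline/OVA and 6.90, 7.23 and 7.17 in CDEP/OVA. It therefore moved with the groups, and the part of heart tissue in the other results was not tested directly. With the heart and fat list means as covariates, 344 genes were called, 245 of them shared with the 594, and 6 of the 594, all lower in the first model, had the opposite sign (Ckm, Ckmt2, Pde4dip, Ryr2, Smpx and Tnnt2). No heart gene was called in that model. By construction it removes the average group difference of the 22 heart genes, though not that of each single gene. Fat genes gave a list mean of 4.99, 5.04 and 5.31 in CDEP/OVA and 5.32, 5.87 and 5.54 in Saline/OVA, and none of the 10 was called.

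**Figure D4:**
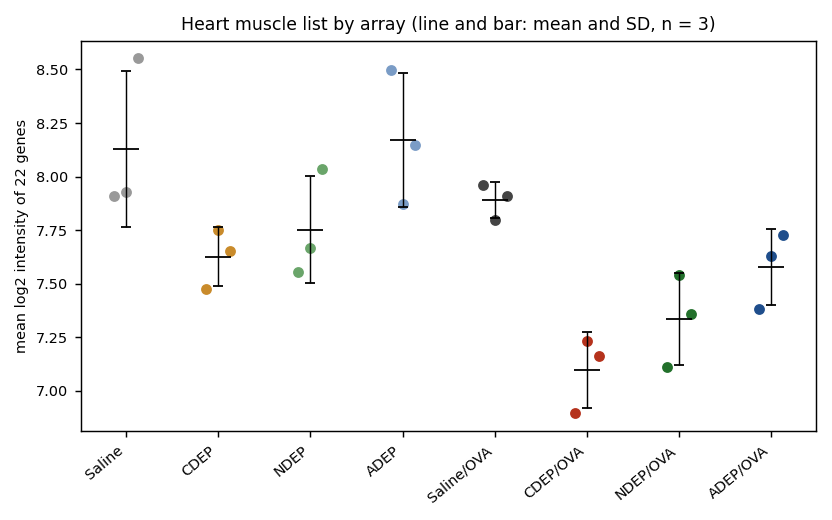
Mean log2 intensity of the 22 measured heart muscle genes (y axis) in each of the 8 groups (x axis), with 1 point per mouse and the mean and SD of 3 mice as line and bar. The CDEP/OVA points, 6.90 to 7.23, lie below the Saline/OVA points, 7.80 to 7.96, and the Saline points reach 8.55. The NDEP/OVA points, 7.11 to 7.54, and the ADEP/OVA points, 7.38 to 7.73, also lie below the Saline/OVA points.

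Of the genes outside heart muscle, some connective tissue and club cell genes fell. Fbln1, Dcn, Lum and Dpt, of the extracellular matrix, were the 4 of 32 fibroblast and matrix genes called, with falls of 0.97, 0.87, 0.82 and 0.59, and no matrix gene rose. Fbln1 measured 7.47, 7.82 and 7.37 in Saline/OVA and 6.73, 6.44 and 6.60 in CDEP/OVA (adjusted p = 6.94e-05) and kept its call with any array left out, while the matrix count was 1 without replicate 2 of Saline/OVA or replicate 1 or 2 of CDEP/OVA. Scara5, a scavenger receptor for ferritin, measured 6.51, 6.89 and 6.81 against 5.55, 5.28 and 5.61 and fell by 1.26 (SE 0.20, adjusted p = 0.000444). Neither gene overlapped between groups. Fzd4, a Wnt receptor, fell by 1.15 (SE 0.21). Of 12 club cell markers 3 fell, among them the secretoglobin Scgb3a2 by 0.72 and the cytochrome Cyp2f2 by 0.48, and both lost their call without replicate 2 of CDEP/OVA. No endothelial (25) or alveolar type 2 (15) marker was called.

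Some of the genes that fell furthest rest on a single probe set. Hnrnpab, an RNA-binding protein, had the lowest value of all called genes, -1.41 ± 0.23 (adjusted p = 0.000456), on its brightest of 7 probe sets. The other 6 lay between -0.07 and 0.22 and none was called. Ehd2, a protein of caveolae, fell by 1.16 (SE 0.16) on its brightest probe set, while the others differed by -0.31 and 0.02. RNA quality was read from control probe sets of Gapdh and Actb. The difference between the 3' and 5' ends was 0.396 ± 0.196 (SD) in CDEP/OVA and 0.185 ± 0.156 in Saline/OVA for Gapdh, exact two-sided permutation p = 0.3. For Actb it was 1.02 ± 0.193 against 0.816 ± 0.0930, exact permutation p = 0.2, and 0.1 is the smallest p that 3 against 3 arrays allow. With both differences as covariates 602 genes were called, 447 of them among the 594.

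The same particle was also given without OVA. In CDEP against Saline, which shares no array with the comparison above, 501 genes were called (4.04%), 283 higher (2.28%) and 218 lower (1.76%), and arrays did not overlap for 23.0% of all genes. 99 genes rose in both comparisons, which is 22% of those that rose with OVA and 35% of those that rose without it. 7 genes fell in both, 4.83% and 3.21% of the lower genes, and no gene was called in opposite directions. Of the 449 genes higher with OVA, 386 had a positive sign without it. The CDEP and Saline arrays did not overlap in the Gapdh difference between 3' and 5' ends (0.000 to 0.123 against 0.125 to 0.679). They also did not overlap in the Actb difference (0.636 to 0.688 against 0.808 to 1.20). With RNA quality covariates only 3 genes were called in CDEP against Saline. The part of RNA quality in that comparison was not tested further, and its count was 144 without replicate 2 of CDEP and 147 without replicate 1 of Saline.

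Some groups rose with and without OVA. Neutrophil chemokine genes were called 3 times in each comparison, and Cxcl1 rose by 2.32 ± 0.33 with OVA and 2.25 ± 0.33 without. Among acute phase genes, 9 rose with OVA and 11 without, Saa3 by 2.20 ± 0.49 and 2.92 ± 0.49 and Orm1 by 2.56 ± 0.38 and 2.87 ± 0.38. Il33 rose by 1.54 ± 0.22 and 1.40 ± 0.22. None of these 4 genes was called in the interaction, the test of whether the particle's effect differed with OVA. S100a8 was called without OVA (1.21 ± 0.28) and not with it (0.33 ± 0.28), and its interaction, -0.88 ± 0.39, was not called. 4 alveolar type 2 markers rose without OVA and none with it, and none was called in the interaction. For the heart list, 2 genes fell without OVA and 16 with it, with medians of -0.52 and -0.87, and none was called in the interaction. The list mean was 7.48 to 7.75 in CDEP and 7.91 to 8.55 in Saline.

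The interaction was called for 46 genes (0.371%), 32 with a higher effect under OVA (0.258%) and 14 with a lower one (0.113%). The interaction contains the difference of CDEP/OVA and Saline/OVA, so the values below are given side by side. Of the 22 interferon-inducible genes, 19 rose with OVA, none without, and 6 were called in the interaction. Of the 16 mucus genes the counts were 14, 1 and 3, of the 4 chitinases 4, 1 and 3, and of the 15 macrophage genes 10, 0 and 3. The largest positive interactions were those of Chil4 (3.54 ± 0.38, adjusted p = 1.83e-05), Arg1 (3.10 ± 0.47), Cxcl9 (2.87 ± 0.46), Iigp1 (2.45 ± 0.43) and Chil3 (2.40 ± 0.47). Chil4 measured 4.31, 4.44 and 4.46 in Saline and 4.36, 4.45 and 4.63 in CDEP. Cxcl9 measured 4.65, 4.87 and 4.67 in Saline and 4.60, 4.64 and 4.92 in CDEP. Both genes thus differed little between these groups without OVA and rose with it. Chil4 was dim in both Saline and CDEP, so a change without OVA may have been missed. Muc5ac (1.70 ± 0.25), Slc26a4 (2.08 ± 0.41) and Ccl11 (1.33 ± 0.19) were also called, and Clca1 (4.39 ± 1.27, adjusted p = 0.134) was not. The interaction of Slc26a4 was smaller than its rise of 4.14 with OVA, so Slc26a4 was also higher in CDEP than in Saline.

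The lowest interactions were those of Ehd2 (-1.32 ± 0.23), Rps4l (-1.07 ± 0.23), Hamp (-1.02 ± 0.21), Rraga (-0.91 ± 0.15) and Tmem243 (-0.86 ± 0.18). Hamp, the iron hormone hepcidin, measured 5.99, 5.88 and 5.95 in Saline/OVA and 5.18, 5.23 and 5.02 in CDEP/OVA, against 5.81, 6.04 and 5.83 in Saline and 6.01, 6.46 and 5.87 in CDEP. Tmem243, a membrane protein, rose without OVA (0.88 ± 0.13) and differed by 0.01 ± 0.13 with it. None of these 5 was called in the interaction with RNA quality covariates, nor were Iigp1 and Chil3, and the interaction count was then 13. It was 25 when only the 4 groups compared were fitted, 17 without replicate 2 of Saline/OVA and 73 without replicate 2 of Saline.

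**Figure D5:**
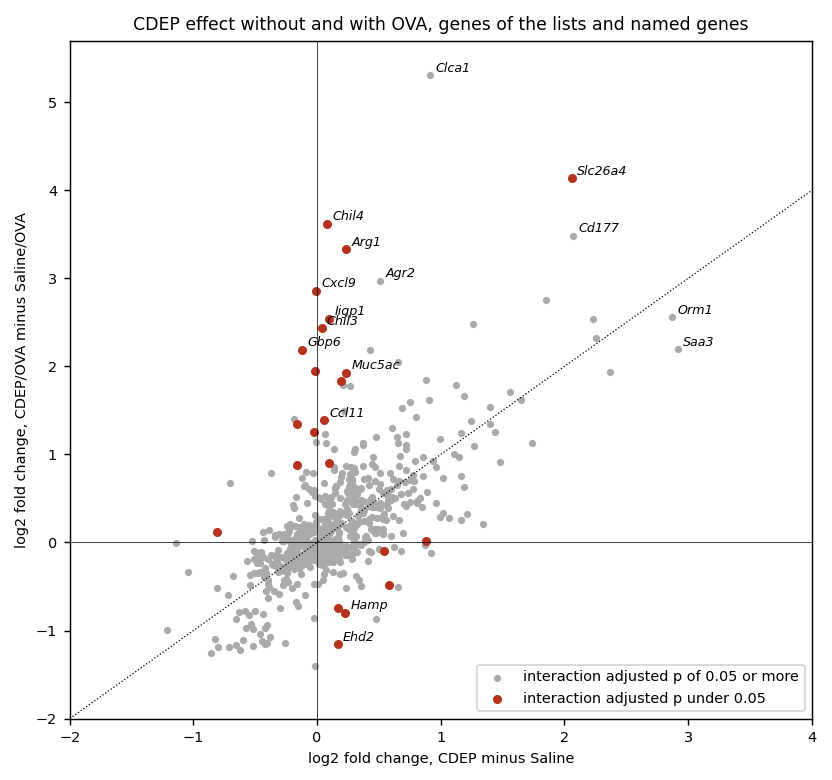
Log2 fold change of CDEP over Saline (x axis) against that of CDEP/OVA over Saline/OVA (y axis), 1 point for each of 663 genes of the lists or named by rule, red where the gene was called in the interaction, with a dotted line at equal values. Chil4, Arg1 and Cxcl9 lie near 0 on the x axis and above 2.5 on the y axis.

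The particles were then compared with each other under OVA. Against ADEP/OVA, 177 genes were called (1.43%), 101 higher in CDEP/OVA (0.815%) and 76 lower (0.613%). This comparison shares the CDEP/OVA arrays with the one against Saline/OVA. 11 of the 22 interferon-inducible genes, 6 of the 16 mucus genes and 3 of the 4 chitinases were higher. The highest were Chil4 (2.90 ± 0.27, adjusted p = 1.03e-06), Cxcl9 (2.19 ± 0.33), Agr2 (1.75 ± 0.45), Iigp1 (1.64 ± 0.30) and Gbp6 (1.59 ± 0.21, adjusted p = 0.000301). Chil4 measured 4.87, 5.61 and 5.13 in ADEP/OVA and Gbp6 6.29, 6.29 and 5.80, all below the CDEP/OVA arrays. Muc5ac was 1.43 ± 0.18 higher (adjusted p = 0.000157). The lowest were Ehd2 (-1.01 ± 0.16) and Mb (-0.99 ± 0.22), with Cox6a2, Fabp3 and Fbln1 at -0.91, -0.89 and -0.80. Cox6a2, a muscle subunit of cytochrome oxidase, and Fabp3 and Mb were not called with the heart and fat list means in the model. Agr2 was close to the threshold (adjusted p = 0.0492) and lost its call without replicate 1 of ADEP/OVA or any 1 CDEP/OVA array.

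No neutrophil or monocyte chemokine was called between C-DEP and A-DEP under OVA. Cxcl1 differed by 0.39 ± 0.33 and Ccl2 by 0.12 ± 0.22, and none of the 24 acute phase genes was called. The count of 177 rested on the design of the model: 19 genes were called when only these groups were fitted, 80 with the heart and fat list means, and 35 to 386 with 1 array left out (35 without replicate 1 of ADEP/OVA or replicate 2 of CDEP/OVA, 386 without replicate 1 of CDEP/OVA).

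Against NDEP/OVA a single gene was called (0.00807%), Gbp6, which was 1.54 ± 0.21 higher in CDEP/OVA (adjusted p = 0.0016) and measured 6.46, 5.69 and 6.38 in NDEP/OVA. Gbp6 was not called when only these groups were fitted (adjusted p = 0.449), and the count was 13 without replicate 1 of NDEP/OVA and 30 without replicate 3 of CDEP/OVA. 908 genes had an unadjusted limma p under 0.05 and no gene was lower. Cxcl9 was 1.65 ± 0.33 higher (adjusted p = 0.0804) and Arg1 1.57 ± 0.33 higher (adjusted p = 0.105), and neither passed. Clca1 differed by 0.35 ± 0.90, Slc26a4 by 0.16 ± 0.29, Muc5ac by 0.56 ± 0.18 and Chil3 by 0.12 ± 0.33. A p above the threshold does not show that the particles act alike: the SE of 0.90 for Clca1 leaves room for large differences. Side by side, the log2 fold changes against Saline/OVA with C-DEP, N-DEP and A-DEP were 4.14, 3.97 and 2.77 for Slc26a4, 3.62, 2.66 and 0.72 for Chil4, 2.86, 1.21 and 0.66 for Cxcl9, and 2.32, 1.89 and 1.93 for Cxcl1. These 3 comparisons share the Saline/OVA arrays.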

How the data were processed

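Lung RNA of 24 mice was measured on Affymetrix arrays, 1 per mouse, and the samples were grouped by title into 8 groups of 3. The file deposited by the authors gives 1 intensity for each probe set that was summarized by RMA, the robust average over arrays named in the submitters' processing notes, whose version and settings are not given here. The intensities ran from 5.98 to 18195.5, a linear scale, so log2 was taken first. RMA compresses differences of dim probe sets, and spot background was not analysed here.

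Among the 22690 probe sets 64 are controls. The platform's annotation assigns 1 symbol to 20380, several to 691 and none to 1555, and those with several or none were not named. 4956 genes had more than 1 probe set, of which the brightest on average over the 24 arrays stood for the gene, leaving 12393 genes. The closest array pair correlated at 0.996, and at most 0.0353% of values were identical in any pair, so all arrays counted as separate.

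limma 3.58.1 in R 4.3.3 fitted 8 group means to all 24 arrays (16 residual and 8.16 prior degrees of freedom, eBayes without trend, two-sided, Benjamini-Hochberg over all genes at 0.05). All groups share 1 estimate of the spread. The same replicate numbers run through the groups, but the deviations of same-numbered CDEP/OVA and Saline/OVA arrays correlated at -0.15, 0.11 and 0.19, so the numbers were not taken as pairs. Tables and plots were made in Python 3.11.15 (pandas 2.3.3, numpy 2.4.6, matplotlib 3.10.9).

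Named genes are the 12 highest and 12 lowest called genes whose arrays do not overlap, up to 4 genes of smallest p per list described, 20 genes always given, and the 5 highest and 5 lowest of the interaction and direct comparisons. Other list members named with a value were chosen after their values were seen. The comparison and the 50 gene lists (802 entries, 742 genes, 654 measured) were chosen with earlier results of these data known, and the lists overlap. Promoter windows came from RefSeq, and 501 of the 663 genes looked up had one; motifs were searched on both strands.

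Each count was recomputed with array weights, over every probe set, after quantile normalization, with a filter on dim genes (10381 kept, on 3 or more arrays over the 25th percentile), with only the groups compared, with a robust trended variance, with the replicate number as a block, with RNA quality covariates, with the heart and fat list means as covariates, and without each array in turn. The counts of gene list members under these settings were added after seeing the data. The fit was tested on simulated data for CDEP/OVA against Saline/OVA (10 runs, 12393 genes, 200 changed), with 5.54% of calls false. It found 79.25% of the genes set to 1.5-fold, 98.4% of those at 2-fold and 99.85% of those at 4-fold. The simulated noise was independent between genes and, for each gene, had the same spread in every group. Unequal spreads and shifts shared by many genes on an array were therefore not covered by these rates.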

Additional observations from a re-analysis of the deposited data

Results flagged for a closer look

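The effect of C-DEP on the lung differed with and without OVA by the interaction test of limma for 46 genes, and the 5 highest and 5 lowest of them are given here. The difference of the 2 log2 fold changes was 3.54 for Chil4, 3.10 for Arg1, 2.87 for Cxcl9, 2.45 for Iigp1 and 2.40 for Chil3. These genes rose with OVA and were not called without it, where Chil4 was dim in both groups. The difference was -1.32 for Ehd2, -1.02 for Hamp and -0.91 for Rraga, which fell with OVA and were not called without it. It was -1.07 for Rps4l and -0.86 for Tmem243, which rose without OVA and were not called with it. Rps4l resembles other ribosomal protein S4 genes, so its probe set may share signal with them.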

How the results depend on the processing

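The number of genes called in CDEP/OVA against Saline/OVA, 594, was 1055 with array weights and 344 with the heart and fat list means as covariates, and ran from 217 to 573 with 1 array left out. The 501 of CDEP against Saline became 874 over all probe sets, 1450 with array weights, 3 with RNA quality covariates, 243 with heart and fat covariates and 297 with only the compared groups, and ran from 144 to 603 with 1 array left out. The 46 of the interaction became 127, 263, 13, 76 and 25 in the same order, and ran from 17 to 73. The 177 against ADEP/OVA became 109 after a further quantile normalization, 80 with heart and fat covariates and 19 with only the compared groups, and ran from 35 to 386. The single gene against NDEP/OVA became 2 after quantile normalization, 13 with array weights, 9 with RNA quality covariates and 0 with only the compared groups, and ran from 1 to 30. With the replicate number as a block the counts were 598, 549, 47, 204 and 6, and 558 of the 594 genes remained; the replicate numbers were not shown to pair the arrays. 3 genes that were not called changed sign: after quantile normalization Il13 gave 0.021, Il5 0.064 and Epx 0.0052. With 1 array left out Il5 ran from -0.11 to 0.077 and Epx from -0.19 to 0.00055. The cause of these shifts was not tested. Dim genes limit what can be read: below the 25th percentile of an array a change may be missed or understated.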

Other observations

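Further gene lists of the same comparison are given here. Of 20 macrophage lysosome and lipid genes 8 rose in CDEP/OVA against Saline/OVA and none fell, with a median of 0.29. Mmp12 and Ctss, among the 8, also belong to the alternatively activated macrophage and class II lists. Ctsk, the collagen-degrading cathepsin K, measured 7.48, 6.90 and 7.11 in Saline/OVA and 8.62, 8.35 and 8.21 in CDEP/OVA and rose by 1.23 ± 0.22 (limma, adjusted p = 0.00144). Cd68, a lysosomal protein of macrophages, rose by 1.13 ± 0.26 and was not called without replicate 2 of either group or replicate 1 of CDEP/OVA. The count of the list was 3 without replicate 2 of either group, 4 without replicate 1 of CDEP/OVA, 5 without replicate 3 of Saline/OVA and 1 with the heart and fat list means in the model. Of 31 DNA replication and mitosis genes 4 rose (0 without replicate 2 of either group).

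Of 18 immediate early genes 3 rose (1 without replicate 2 or 3 of Saline/OVA or replicate 1 or 2 of CDEP/OVA). Egr2, a zinc finger transcription factor, measured 4.78, 4.79 and 4.95 in Saline/OVA and 5.66, 5.89 and 5.68 in CDEP/OVA and rose by 0.90 ± 0.11 (limma, adjusted p = 1.69e-05). It differed by 0.10 ± 0.11 without OVA, and its interaction was 0.80 ± 0.16 (adjusted p = 0.0203). Of 11 natural killer cell markers 1 rose and 1 fell (9.09% each, beside 3.62% and 1.17% of all genes), with a median of 0.13. Gzmb, the granzyme B of cytotoxic lymphocytes, rose by 0.82 ± 0.17 and lost its call without replicate 2 of CDEP/OVA. The gene that fell, Itga2, had a log2 fold change of -0.42.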
